A study of Mus musculus with 8 samples.

Results

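The CXC chemokines described here are *Cxcl1*, *Cxcl2*, *Cxcl3*, *Cxcl9*, *Cxcl10* and *Cxcl16*, 6 of the 23356 genes in the deposited table, chosen by gene symbol. Of these 6, 4 (*Cxcl2*, *Cxcl3*, *Cxcl10* and *Cxcl16*) reached 1 FPKM (fragments per kilobase of transcript, scaled to library size) in at least 1 group, while *Cxcl1* and *Cxcl9* stayed below that level in every group. RNA-seq was performed on bone marrow-derived dendritic cells (BMDCs), cells grown from mouse marrow in GM-CSF and IL-4, of WT and GEF-H1-/- mice, labelled as C57BL/6 background and given as C57BL/6N in the methods of the study. The 4 groups were untreated (control) WT, ansamitocin-P3-treated WT, untreated GEF-H1-/- and ansamitocin-P3-treated GEF-H1-/- BMDCs, with 2 libraries each, and treatment was at 100 nM for 5 h. Ansamitocin-P3 is a maytansinoid that destabilizes microtubules, and GEF-H1, the product of *Arhgef2*, is a guanine nucleotide exchange factor for small GTPases that is held on microtubules. The knockout is constitutive, so marrow precursors in the cultures lacked it as well as the dendritic cells.

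The deposited table holds 1 FPKM value per gene and group, pooled by Cuffdiff over the 2 libraries, with a 95% interval. No SD, n or p-value can be given, no difference was tested against the spread between duplicates, and the intervals are printed in brackets after the values. *Arhgef2* was at 42.3 FPKM in WT controls and 45.9 in drug-treated WT, against 4.59 and 4.16 in GEF-H1-/- BMDCs. The dendritic cell markers *Itgax*, *Cd74*, *H2-Ab1* and *H2-Aa* were expressed in each group, with *Cd74* between 3073 and 4935 FPKM, whereas *Flt3* and *Cd209a* did not exceed 3.30 FPKM in any group. Markers of neutrophils were also high. *S100a8* was at 19401 and 23110 FPKM in control and treated WT and at 10856 and 11199 in GEF-H1-/- BMDCs, and the 9 neutrophil markers found in the table summed to 32496, 38400, 21940 and 22358 FPKM in the order of groups given above. *S100a8* and *S100a9* made up most of these sums, and the single markers did not all differ between genotypes in one direction. In untreated cells, 2 of the 9 were higher without GEF-H1 by a log2 difference over 1 (*Elane*, 20.7 and 45.9 FPKM in WT and GEF-H1-/- BMDCs, and *Mpo*, 26.4 and 63.1) and 3 were lower by over 1 (*Ngp*, *Ltf* and *Camp*, of which *Camp* differed most, with a log2 difference of -3.57), with a median over the 9 of -0.09. *Elane*, *Mpo*, *Ltf* and *Camp* are named for these differences, after their values were seen. Over the 11397 genes with at least 1 FPKM in a group, 1.26% were higher by over 1 without GEF-H1 in untreated cells. Of these 11397 genes, 214 differed by over 1 in either direction. The tenth listed marker, *Ly6g*, was not matched by symbol. Neutrophils themselves can make CXC chemokines, and the part of such cells in the values below was not tested. With ansamitocin-P3, 0 of these 9 markers and 0 of 8 dendritic cell markers had a log2 change over 1 or under -1 in either genotype. In bulk RNA, a change in the number of cells of a type and a change in RNA per cell cannot be told apart.

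Chemokines are small secreted proteins that guide leukocyte migration through G protein-coupled receptors, and in the CXC class a single residue separates the first cysteines of the protein. CXCL1, CXCL2 and CXCL3 act on CXCR2 and draw neutrophils, CXCL9 and CXCL10 act on CXCR3 and draw activated T and NK cells, and CXCL16 is made as a membrane-bound protein that binds CXCR6 and can be shed from the surface. The neutrophil-attracting ligands are classical targets of NF-κB in innate immune activation, and CXCL9 and CXCL10 are known as interferon-induced.

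Of these genes, 5 lie on chromosome 5 (GRCm38, GENCODE M21). *Cxcl3* (90786103 to 90789600), *Cxcl1* (90891241 to 90893115) and *Cxcl2* (90903871 to 90905938) are on the plus strand in a group of 7 ligand genes that runs over 147 kb from *Cxcl5* to *Cxcl2*. *Cxcl9* (92321347 to 92328079) and *Cxcl10* (92346638 to 92348889) are on the minus strand in a second group of 44.1 kb that ends with *Cxcl11*. *Cxcl11* is annotated as a polymorphic pseudogene. *Cxcl16* lies apart on chromosome 11 (70453983 to 70459984, minus strand).

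The bases just before the RefSeq start (GRCm38.p6) of the neutrophil-attracting ligands are shown because an identical stretch recurs in genes that differed widely in level. Each sequence reads 5′ to 3′ on the strand of its gene, covers the 130 bases before the start, and carries in capitals the matches to the NF-κB consensus.
Cxcl1, chr5:90891115-90891244, plus strand: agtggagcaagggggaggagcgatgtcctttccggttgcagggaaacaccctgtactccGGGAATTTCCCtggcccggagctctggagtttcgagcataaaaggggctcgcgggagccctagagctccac
Cxcl2, chr5:90903769-90903898, plus strand: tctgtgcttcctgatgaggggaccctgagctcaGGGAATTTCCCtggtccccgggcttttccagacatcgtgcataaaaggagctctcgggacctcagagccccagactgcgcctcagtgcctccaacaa
Cxcl3, chr5:90785971-90786100, plus strand: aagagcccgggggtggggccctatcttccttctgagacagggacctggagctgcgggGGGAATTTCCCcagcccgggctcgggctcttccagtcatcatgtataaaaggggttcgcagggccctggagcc

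The longest run of bases common to these 3 promoters within 250 bases before the start was GGGAATTTCCC, 11 bases long, at -71 to -61 in *Cxcl1*, -97 to -87 in *Cxcl2* and -73 to -63 in *Cxcl3*, where -1 is the base before the start. It holds 1 match to the NF-κB consensus on each strand, and these overlap by all but 1 base. The consensus was found in 8.46% of 32851 promoter windows (250 bases before to 50 after a start, both strands), and the 11-base run in 14 of them (0.0426%). Of these 14 genes, 9 were in the table and 5 passed the level of 1 FPKM. The run was picked as common to *Cxcl1*, *Cxcl2* and *Cxcl3*, so these genes carry it by definition. *Cxcl2* and *Cxcl3* had a log2 change over 1 with ansamitocin-P3 in WT, as did 3.66% of the 11397 genes compared. The other genes of the 5, *Il16*, *Zfp84* and *Hpn*, are not CXC ligands and had log2 changes of -0.85, -0.10 and 0.08. A link between the run and the change was not tested. *Cxcl1* carries the same run and stayed under 1 FPKM.

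The promoters of the CXCR3 ligands are shown over 250 bases for contrast. Capitals mark matches to the NF-κB consensus, to the interferon-stimulated response element (ISRE) and to the AP-1 motif (TGANTCA).
Cxcl10, chr5:92348890-92349139, minus strand: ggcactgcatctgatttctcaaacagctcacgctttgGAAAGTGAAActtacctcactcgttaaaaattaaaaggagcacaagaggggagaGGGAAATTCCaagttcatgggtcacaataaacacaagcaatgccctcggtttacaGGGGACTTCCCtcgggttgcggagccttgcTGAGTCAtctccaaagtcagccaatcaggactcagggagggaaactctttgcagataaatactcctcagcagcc
Cxcl9, chr5:92328080-92328329, minus strand: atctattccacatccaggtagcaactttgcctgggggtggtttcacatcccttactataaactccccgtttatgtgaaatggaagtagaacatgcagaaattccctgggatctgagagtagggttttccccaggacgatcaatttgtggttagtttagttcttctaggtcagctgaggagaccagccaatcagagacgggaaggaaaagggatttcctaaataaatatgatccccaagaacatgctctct

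In *Cxcl10*, from the far end towards the start, these are an ISRE match at -213, NF-κB matches at -159 and -104 and an AP-1 match at -74. The ISRE consensus was found in 3.44% and the AP-1 motif in 7.81% of the promoter windows. In *Cxcl9* none of the 3 motifs matched before the start, and an AP-1 match lay after it. The C/EBP letters TTGCNNAA (10.8% of windows) matched in none of the 5 promoters, and TATAAA (13.6% of windows) matched in *Cxcl3* and *Cxcl9*. A match is a description of letters and not a measured binding site.

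*Cxcl3* and *Cxcl2* were the members with the largest change. *Cxcl3* was at 3.97 FPKM (2.36 to 4.68) in WT controls, 145 (97.6 to 157) in drug-treated WT, 9.73 (6.08 to 11.5) in GEF-H1-/- controls and 35.4 (23.4 to 41.2) in drug-treated GEF-H1-/- BMDCs. No interval of *Cxcl3* overlapped that of another group, and treated WT was the highest. *Cxcl2* was at 3.68 FPKM (2.21 to 4.46), 63.4 (42.5 to 69.0), 5.36 (3.27 to 6.75) and 17.0 (11.1 to 20.4) in the same order. Its control intervals overlapped between the genotypes, and both treated groups lay above both controls.

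As a ratio of FPKM, ansamitocin-P3 raised *Cxcl3* 36.4-fold in WT and 3.64-fold in GEF-H1-/- BMDCs. *Cxcl2* rose 17.2-fold in WT and 3.16-fold in GEF-H1-/- BMDCs. The WT fold of *Cxcl3* was 10.0 times the GEF-H1-/- fold (interval propagated from the Cuffdiff bounds, 5.22 to 20.0), and that of *Cxcl2* was 5.45 times (2.74 to 11.1). In absolute terms *Cxcl3* gained 141 FPKM in WT against 25.6 in GEF-H1-/- BMDCs, and *Cxcl2* gained 59.7 against 11.6.

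All further changes are log2 ratios of FPKM + 1, a scale on which changes of weakly expressed genes come out too small, and a gene is said to rise or fall when this value is over 1 or under -1. On this scale the *Cxcl3* change was 4.87 (4.28 to 5.45) in WT and 1.76 (1.15 to 2.40) in GEF-H1-/- BMDCs, placing it 12th and 34th from the top among the 11397 genes that passed the level of 1 FPKM with a Cuffdiff status of OK. *Cxcl2* changed by 3.78 (3.18 to 4.34) and 1.50 (0.86 to 2.12), placing it 16th and 47th. Although smaller, the change in GEF-H1-/- BMDCs was thus still among the 50 highest in that genotype for both genes, at 0.361 of the WT log2 change for *Cxcl3* and 0.396 for *Cxcl2*. The difference between the genotypes in the change was 3.11 (2.24 to 3.96) for *Cxcl3* and 2.29 (1.41 to 3.13) for *Cxcl2*.

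The genotypes also differed before treatment in *Cxcl3*. Control GEF-H1-/- BMDCs had 2.45 times the *Cxcl3* FPKM of control WT, a log2 difference of 1.11 (0.48 to 1.71). When 5 FPKM was added in place of 1 it was 0.72, no longer over 1. For *Cxcl2* the same difference was 0.44 (-0.17 to 1.06). The treated groups differed by less than the folds did. Treated WT had 4.09 times the *Cxcl3* and 3.74 times the *Cxcl2* FPKM of treated GEF-H1-/- BMDCs. Macrophage markers summed to 783 FPKM in WT controls and 1254 in GEF-H1-/- controls, and *Lyz2*, at 557 and 984 FPKM, made up most of that difference. Of the 7 markers, 0 differed by over 1, and the median of their log2 differences was 0.10. Among the other marker lists, the neutrophil granule genes *Elane* and *Mpo* and the stromal collagen gene *Col1a2*, with log2 differences of 1.11, 1.23 and 1.44, were higher in GEF-H1-/- controls by over 1, as were the platelet genes given with the other CXC ligands, while *Ngp*, *Ltf* and *Camp* and the lymphocyte gene *Gzma* were lower by over 1. *Col1a2* was the only 1 of 5 stromal markers to reach 1 FPKM in a group. It did so only without GEF-H1, and was at 0.0895 FPKM in WT controls, so its difference rests on low values. The part of any of the cell types named here in the *Cxcl3* difference was not tested.

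*Cxcl2* and *Cxcl3* are paralogs whose reads can be split by the counting. Of the 35-base stretches of their transcripts, the length of the reads, 76 are shared, which is 4.09% of those of *Cxcl2* and 7.74% of those of *Cxcl3*, and the longest shared run is 110 bases. *Cxcl1* shares no 35-base stretch with any other gene. The ratio of *Cxcl3* to *Cxcl2* FPKM was 1.08 in WT controls, 2.28 in drug-treated WT, 1.82 in GEF-H1-/- controls and 2.09 in drug-treated GEF-H1-/- BMDCs, and the intervals of the paralogs overlapped in both control groups and in neither treated group.

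*Cxcl1*, which acts on the same receptor, was detected at a low level. It was at 0.203 FPKM (0.0467 to 0.373) in WT controls, 0.487 (0.140 to 0.794) in drug-treated WT, 0.233 (0.0467 to 0.373) in GEF-H1-/- controls and 0.555 (0.187 to 0.887) in drug-treated GEF-H1-/- BMDCs. All of these intervals overlapped. The bounds of *Cxcl1* are whole multiples of 0.0467 FPKM, which can be read as the worth of 1 fragment although the table does not say so, and on that reading its values stand for 4.34, 10.4, 4.99 and 11.9 fragments per group, against 90.8 to 3310 for *Cxcl3* and 90.0 to 1550 for *Cxcl2*. The *Cxcl1* ratio of treated to control was 2.40 in WT and 2.38 in GEF-H1-/- BMDCs. The WT ratio was 1.01 times the GEF-H1-/- ratio, with an interval from 0.115 to 7.09, so a difference between the genotypes of the size seen for *Cxcl2* was not detectable at this depth.

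**Figure D1:**
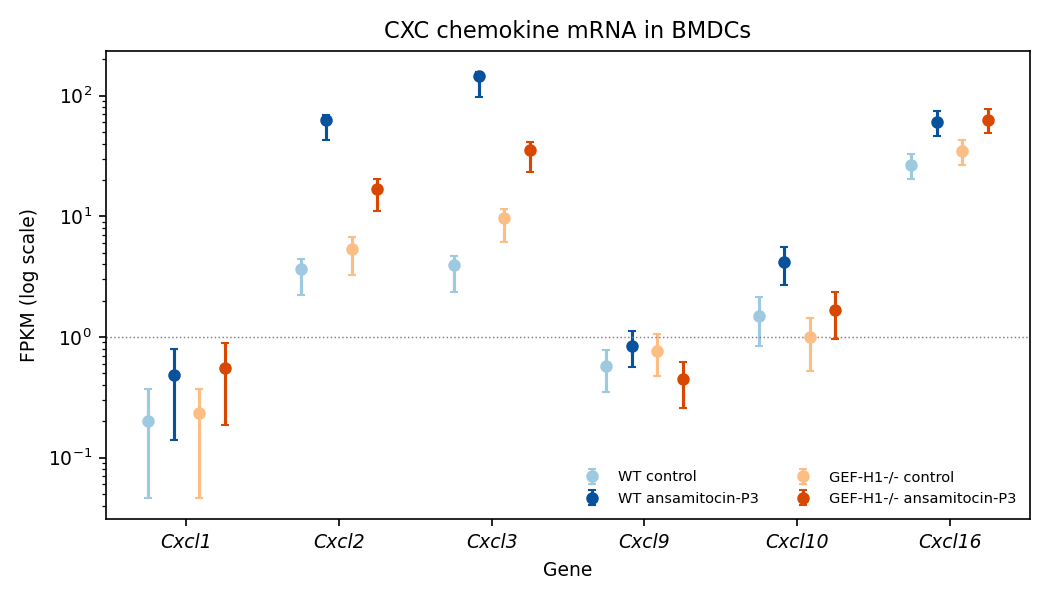
FPKM on a log axis of the 6 CXC chemokine genes in control and ansamitocin-P3-treated BMDCs of WT (blue) and GEF-H1-/- mice (orange). Points are pooled Cuffdiff values, bars their 95% intervals, and the dotted line marks 1 FPKM. *Cxcl2* and *Cxcl3* in drug-treated WT (63.4 and 145 FPKM) stand above the other 3 groups, while the treated groups of *Cxcl16* lie level at 60.7 and 63.0.

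*Cxcl16*, the membrane-bound ligand, was the most abundant member in both control groups. It was at 26.6 FPKM (20.4 to 32.6) in WT controls, 60.7 (46.7 to 74.7) in drug-treated WT, 34.8 (26.8 to 42.7) in GEF-H1-/- controls and 63.0 (48.6 to 77.0) in drug-treated GEF-H1-/- BMDCs. The intervals of control and treated cells were apart in each genotype, and those of the 2 treated groups almost coincided. The ratio of treated to control was 2.28 in WT and 1.81 in GEF-H1-/- BMDCs, log2 changes of 1.16 (0.69 to 1.63) and 0.84 (0.37 to 1.30). The latter was under the threshold of 1 and still ranked 139th of 11397 genes in that genotype. The change in GEF-H1-/- BMDCs was 0.722 of that in WT, and the difference between the genotypes was 0.32 (-0.34 to 0.99), an interval that includes both no difference and a difference close to the threshold. Between the treated groups the log2 difference was 0.05 (-0.42 to 0.52).

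Of the genes for release of CXCL16 from the surface, *Adam10* and *Adam17*, which encode sheddases, and *Rhbdf2*, which encodes a partner needed for ADAM17 maturation, passed the level of 1 FPKM. *Rhbdf2* rose from 21.4 to 47.0 FPKM in WT, a log2 change of 1.10, and went from 23.5 to 30.9 in GEF-H1-/- BMDCs, a change of 0.38. The log2 changes in WT and GEF-H1-/- BMDCs were -0.29 and -0.07 for *Adam10* and 0.08 and 0.17 for *Adam17*. *Cxcr6*, the receptor for CXCL16, was between 2.11 and 2.47 FPKM in the 4 groups.

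*Cxcl10* was low but above the filter. It was at 1.51 FPKM (0.846 to 2.13) in WT controls, 4.19 (2.70 to 5.60) in drug-treated WT, 0.991 (0.524 to 1.45) in GEF-H1-/- controls and 1.68 (0.967 to 2.38) in drug-treated GEF-H1-/- BMDCs. Treated WT lay above the other 3 groups with no overlap, and the other 3 overlapped each other. The log2 change was 1.05 (0.46 to 1.61) in WT and 0.43 (-0.11 to 0.94) in GEF-H1-/- BMDCs, and the difference between these changes was 0.62 (-0.16 to 1.40). With a pseudocount of 5 FPKM the WT change was 0.50. The treated groups differed by -0.95 (-1.52 to -0.36, GEF-H1-/- minus WT), which became -1.27 with a pseudocount of 0.1 FPKM and then passed the threshold.

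*Cxcl9* was at 0.572 FPKM (0.351 to 0.778) in WT controls, 0.845 (0.564 to 1.11) in drug-treated WT, 0.765 (0.473 to 1.05) in GEF-H1-/- controls and 0.447 (0.259 to 0.625) in drug-treated GEF-H1-/- BMDCs. The values of treated and control cells lay in opposite directions in the genotypes, although their intervals overlapped in each. The ratio of treated to control was 1.48 in WT and 0.584 in GEF-H1-/- BMDCs, and the former was 2.53 times the latter (1.16 to 5.89). *Cxcl9* did not reach 1 FPKM and is not part of the counts below.

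*Cxcl10* and *Cxcl16* each overlap a gene on the other strand, *Art3* and *Zmynd15*, and whether the counting used strand is not given in the sources used here for this table. *Art3* did not exceed 0.0480 FPKM in any group. *Zmynd15* was at 2.78 FPKM in WT controls, 5.10 in drug-treated WT, 2.95 in GEF-H1-/- controls and 4.78 in drug-treated GEF-H1-/- BMDCs, and its intervals overlapped in all groups.

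All 4 members above the filter rose in WT cells given ansamitocin-P3, as did 3.66% of the 11397 genes. In GEF-H1-/- BMDCs 2 of the 4 rose, *Cxcl2* and *Cxcl3*, where 0.807% of all genes rose. For the same 2 the change in WT exceeded that in GEF-H1-/- BMDCs by over 1, which held for 1.36% of all genes, and the same 2 were lower by over 1 in drug-treated GEF-H1-/- than in drug-treated WT BMDCs, as were 2.06% of all genes. Between the control groups only *Cxcl3* of the 4 was higher by over 1 in GEF-H1-/- BMDCs, against 1.26% of all genes. The comparisons share groups, so these counts are not independent of each other. The median log2 change of the 4 was 2.47 in WT and 1.17 in GEF-H1-/- BMDCs, and the medians over all genes were 0.00 and -0.01.

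**Figure D2:**
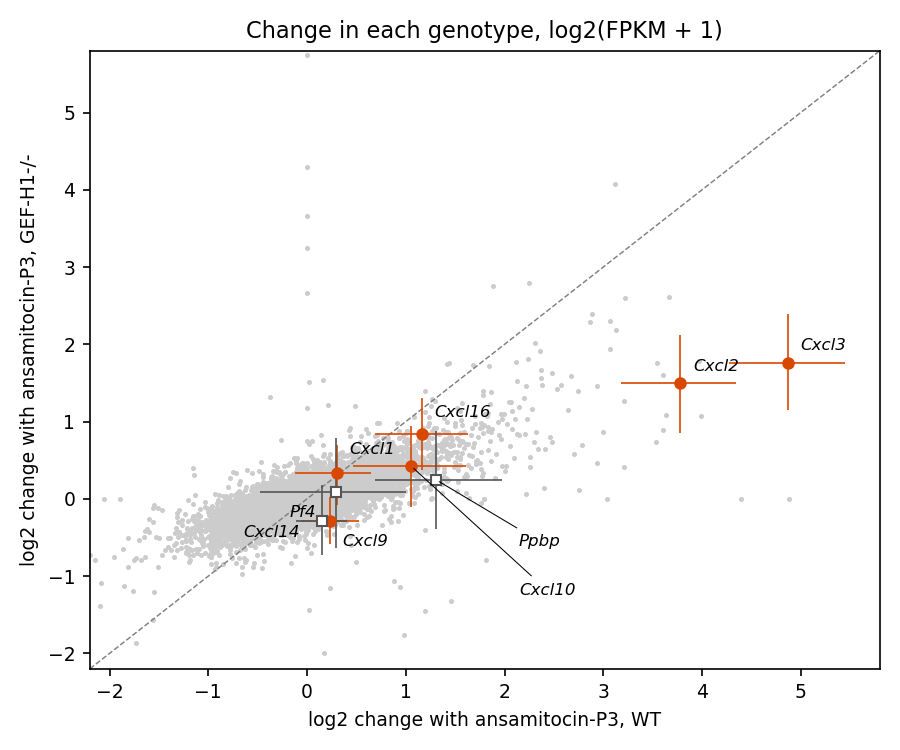
Change with ansamitocin-P3 on the log2(FPKM + 1) scale in WT (x axis) and GEF-H1-/- BMDCs (y axis). Grey points are the genes that passed 1 FPKM (40 lie outside the axes), filled circles the 6 CXC chemokines, open squares *Pf4*, *Ppbp* and *Cxcl14*, and bars the propagated 95% intervals. *Cxcl2* and *Cxcl3* lie far below the dashed line of equal change, at 3.78 and 4.87 in WT and 1.50 and 1.76 in GEF-H1-/- BMDCs, and *Cxcl16* lies near it.

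The make-up of CXC ligand mRNA differed between the groups. The FPKM of the 6 members summed to 36.5 in WT controls, 274 in drug-treated WT, 51.8 in GEF-H1-/- controls and 118 in drug-treated GEF-H1-/- BMDCs. *Cxcl16* made up 72.8% of this sum in WT controls and 22.1% in drug-treated WT, where *Cxcl3* made up 52.7% and *Cxcl2* 23.1%. In GEF-H1-/- BMDCs *Cxcl16* made up 67.1% before and 53.4% after treatment, and remained the highest of the 6. The order in drug-treated WT was *Cxcl3*, *Cxcl2*, *Cxcl16*, *Cxcl10*, *Cxcl9* and *Cxcl1*, where the intervals of *Cxcl2* and *Cxcl16* and those of *Cxcl9* and *Cxcl1* overlapped. In treated GEF-H1-/- BMDCs it was *Cxcl16*, *Cxcl3*, *Cxcl2*, *Cxcl10*, *Cxcl1* and *Cxcl9*, and only the last pair overlapped. In the control groups *Cxcl3* and *Cxcl2* overlapped as well.

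Of 9 other CXC ligands, 3 passed 1 FPKM. *Pf4* and *Ppbp*, platelet chemokines that are neighbours of *Cxcl3*, were at 24.5 and 18.0 FPKM in WT controls, 30.2 and 46.0 in drug-treated WT, 70.9 and 47.1 in GEF-H1-/- controls and 75.3 and 56.2 in drug-treated GEF-H1-/- BMDCs. In controls, both were higher without GEF-H1 than with it, by 1.49 and 1.34 on the log2 scale. *Ppbp* rose with treatment in WT by 1.30, and its log2 change in GEF-H1-/- BMDCs was 0.25. *Cxcl14* was at 0.226, 0.362, 2.11 and 1.56 FPKM. *Cxcl5*, another CXCR2 ligand, did not exceed 0.418 FPKM, *Cxcl12* did not exceed 0.514, and *Cxcl11*, *Cxcl13*, *Cxcl15* (listed under its synonym *Il8*) and *Cxcl17* did not exceed 0.0324 FPKM in any group. Of 5 platelet markers, *Itga2b* and *Gp9* were also higher by over 1 in GEF-H1-/- controls, as were 1.26% of all genes. *Itga2b* was at 19.5 FPKM there, against 7.91 in WT controls. The 5 summed to 37.8, 94.9, 55.2 and 55.8 FPKM, of which *Itgb3* was 25.4, 79.9, 24.9 and 26.3, and their part in the *Pf4* and *Ppbp* values was not tested. With these ligands included, the 6 members made up 45.9% of all CXC ligand FPKM in WT controls, 78.1% in drug-treated WT, 30.0% in GEF-H1-/- controls and 46.8% in drug-treated GEF-H1-/- BMDCs.

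**Figure D3:**
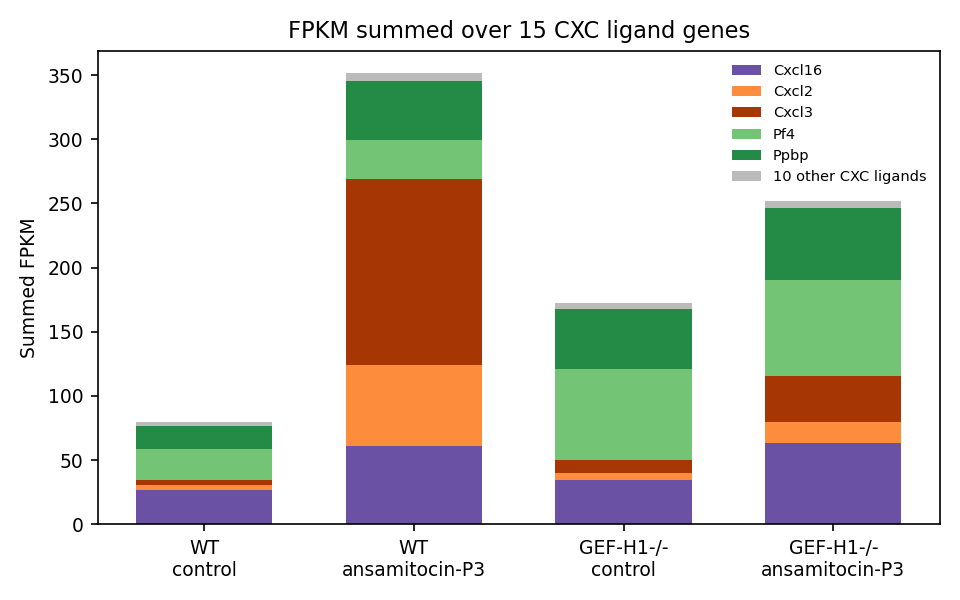
FPKM summed over 15 CXC ligand genes (y axis) in the 4 groups, stacked by gene. *Cxcl3* and *Cxcl2* fill most of the bar of treated WT, and *Pf4* and *Ppbp* the larger part of the bar of control GEF-H1-/- BMDCs.

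Neighbouring genes of the clusters differed widely in level. In treated WT *Cxcl3* at 145 FPKM lay between *Pf4* at 30.2 and *Cxcl15* at 0, and *Cxcl2* at 63.4 lay beside *Cxcl1* at 0.487. In the second cluster *Cxcl10* at 4.19 FPKM lay between *Cxcl9* at 0.845 and *Cxcl11*, annotated as a polymorphic pseudogene, at 0.

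**Figure D4:**
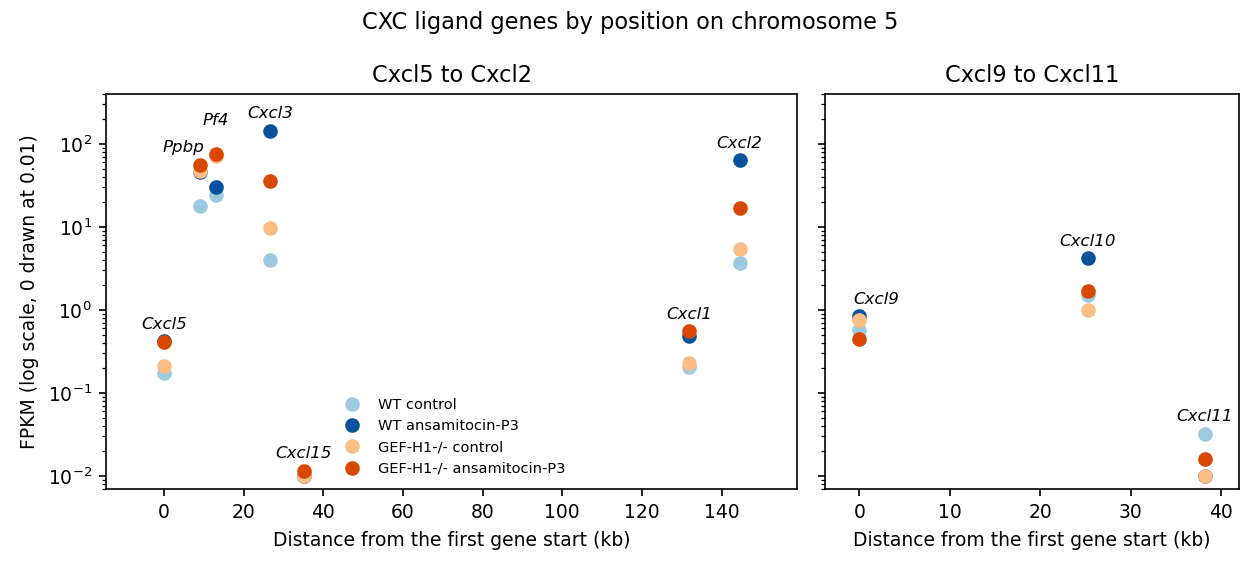
FPKM on a log axis of the ligand genes of both chromosome 5 clusters against distance in kb from the start of the first gene, *Cxcl5* on the left and *Cxcl9* on the right. Each gene has 1 point per group, with 0 drawn at 0.01, and *Cxcl11* is annotated as a polymorphic pseudogene. The neighbours *Cxcl1* and *Cxcl2* differ in level in every group, at 0.487 and 63.4 FPKM in treated WT.

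Of 8 CXC receptor genes, 4 passed 1 FPKM. *Cxcr2*, the receptor for the neutrophil-attracting ligands, was at 122 FPKM in WT controls, 168 in drug-treated WT, 131 in GEF-H1-/- controls and 136 in drug-treated GEF-H1-/- BMDCs. *Cxcr4*, the receptor for CXCL12, was at 68.7, 77.4, 91.0 and 85.5 FPKM. *Cxcr1*, which also binds CXCR2 ligands, was at 0.0963, 0.402, 2.32 and 2.63 FPKM, with GEF-H1-/- controls 1.60 above WT controls on the log2 scale. *Cxcr3*, the receptor for CXCL9 and CXCL10, did not exceed 0.492 FPKM, and *Cxcr5*, *Ackr1* and *Ackr3* (the latter pair listed as *Darc* and *Cxcr7*) did not exceed 0.697. None of the 4 receptors above 1 FPKM rose or fell with treatment in either genotype.

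Among genes whose 3 log2 differences (control difference between the genotypes, change in WT, change in GEF-H1-/-) were compared with those of each member over 8894 genes with at least 5 FPKM in a group, the nearest to *Cxcl2* were *Inhba*, *Osm* and *Thbs1*, at distances of 0.40, 0.58 and 0.71. *Inhba*, which encodes an activin subunit, was at 16.2, 199, 19.8 and 69.6 FPKM. *Osm*, which encodes the cytokine oncostatin M, was at 16.9, 217, 15.7 and 49.9 FPKM. *Cxcl3* had no close neighbour, with *Cxcl2* nearest at 1.31. The nearest to *Cxcl10* were *Pkib*, *Maff* and *Chd7* (0.09 to 0.11), and near *Cxcl16* lay *Atf3* and *Ptpre*, at 0.12 and 0.19. *Atf3*, a stress-induced transcription factor, was at 78.8, 185, 101 and 168 FPKM. Distances are descriptions over 4 pooled values, and for *Cxcl10* and *Cxcl16*, whose changes are smaller, closer genes were found than for *Cxcl2* and *Cxcl3*. *Cxcl10* is weakly expressed, so its changes come out too small on the log2(FPKM + 1) scale. Its FPKM ratio of treated to control was 2.78 in WT, while *Pkib* was at 36.8 FPKM in WT controls and 72.5 in drug-treated WT.

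Genes of the routes that act on CXC ligand mRNA were described by lists. The shares over all genes to set beside the counts that rose are 3.66% in WT and 0.807% in GEF-H1-/- BMDCs. Of 8 genes for IL-1 and TNF ligands and receptors, 3 rose in WT and 1 in GEF-H1-/- BMDCs, with medians of 0.63 and 0.36. *Il1rn*, which encodes the IL-1 receptor antagonist, was at 101 FPKM in WT controls, 778 in drug-treated WT, 197 in GEF-H1-/- controls and 274 in drug-treated GEF-H1-/- BMDCs. The 3 were *Il1rn*, *Il1b* and *Il1a*, and *Il1b* was the 1 that rose in GEF-H1-/- BMDCs. The log2 change of *Tnf* was 0.47 in both genotypes, and *Il1a* and *Tnf* were named after their values were seen. Of 14 NF-κB genes, 4 rose in WT and 0 in GEF-H1-/- BMDCs, with medians of 0.54 and 0.26. The 4 were *Rela*, *Rel*, *Nfkb1* and *Nfkbib*, with WT changes of 1.22, 1.13, 1.03 and 1.04 against 0.66, 0.77, 0.38 and 0.53 in GEF-H1-/- BMDCs, and *Rela*, *Rel* and *Nfkbib* were named after their values were seen. The remaining genes of the list did not rise in either genotype, among them *Nfkb2* (0.64 in WT and 0.32 in GEF-H1-/- BMDCs) and *Nfkbia* (0.35 and 0.27).

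Of 9 AP-1 genes 7 passed the filter, of which 4 rose in WT and 2 in GEF-H1-/- BMDCs, with medians of 1.22 and 0.73. The change of *Junb* was 1.39 with GEF-H1 and 0.40 without it, and that of *Jund* was 0.93 and 0.79. The 2 that rose in both genotypes, named after their values were seen, were *Jun* (1.79 and 1.40) and *Fosl2* (2.22 and 1.46). Of 6 genes for proteins that control decay of chemokine transcripts, 2 rose in WT and 1 in GEF-H1-/- BMDCs. *Zfp36*, which encodes the decay factor tristetraprolin, had log2 changes of 1.31 and 0.47, and *Zfp36l1* rose by 1.56 and 1.02.

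Among genes of the interferon route, known to induce *Cxcl10* and *Cxcl9*, only *Usp18* went past a threshold with treatment. Over all 11397 genes, 563 went past 1 or -1 in WT and 123 in GEF-H1-/- BMDCs, so lists of this length can hold few or none. Of 15 genes for interferon ligands, receptors and factors that passed the filter, 0 rose or fell in either genotype, with medians of 0.06 in WT and -0.10 in GEF-H1-/- BMDCs. The log2 changes of *Irf5* were 0.42 and 0.10, and *Ifnb1* did not exceed 0.0947 FPKM in any group. Of 14 interferon-stimulated genes, 0 rose in either genotype and *Usp18* fell by 1.47 in WT, with medians of -0.26 and -0.23. The log2 changes of *Gbp2* were -0.28 and -0.35. Between the treated groups, 2 of these 14 genes were lower by over 1 in GEF-H1-/- than in WT BMDCs, as were 2.06% of all genes. *Gbp2* was among them, at -1.06. The median difference of the 14 (GEF-H1-/- minus WT) was -0.28 between the treated groups and -0.34 between the controls.

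**Figure D5:**
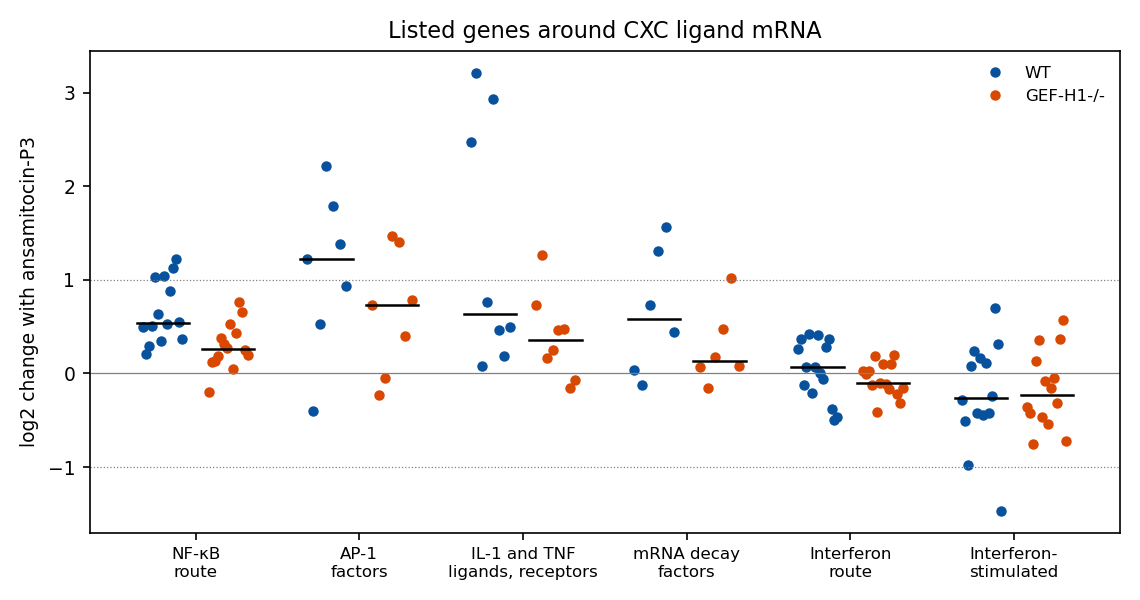
Log2 change with ansamitocin-P3 (y axis) of the listed genes that passed 1 FPKM, in WT (blue) and GEF-H1-/- BMDCs (orange). Each point is a gene, black bars are medians, and dotted lines mark 1 and -1. The AP-1 medians are 1.22 and 0.73, and the interferon lists lie around 0.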

How the data were processed

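RNA from BMDCs was sequenced in 8 strand-specific, 35-base paired-end libraries, 2 per group. The authors computed FPKM with Cuffdiff 1.05 (per the submitters' processing notes, on mm10) and deposited 1 pooled FPKM per gene and group with 95% bounds, also in FPKM. The aligner and annotation behind this table are not given in the sources used here. The table's loci overlapped the RefSeq gene on GRCm38.p6 for 98.9% of 21522 genes. The WT columns carry no genotype in their names, so elimination gave them their group, and *Arhgef2* runs the same way. There were 0 unused columns of per-sample values, and 107 genes with another status than OK were left out.

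Changes were log2 ratios of FPKM + 1 over the 11397 genes with at least 1 FPKM in a group, counted past 1 or -1. No test was possible. Intervals of changes were propagated from the bounds on the log2 scale (method of variance estimates recovery), which treats groups as independent. The computation was tested on simulated data. The planned limma fit was not run, since it needs single libraries, whose depth is unknown here. Genes named were *Arhgef2*, the 6 members, all CXC ligands and receptors, up to 3 genes of highest mean FPKM per other list, and the 3 nearest genes of each member that passed the filter. One gene named by this rule is not reported here. The members and lists were chosen with earlier results of these data known. Alternatives were pseudocounts of 0.1, 5 and 0 FPKM, no filter or a filter of 5 FPKM, rescaling of the groups, a threshold of 0.5 and a requirement that Cuffdiff intervals do not overlap. Scripts used Python 3.11.15, pandas 2.3.3 and numpy 2.4.6.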

Additional observations from a re-analysis of the deposited data

Results flagged for a closer look

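The pooled values of *Cxcl9* lay in opposite directions with ansamitocin-P3 in the genotypes, at 0.23 with GEF-H1 and -0.29 without it, a difference of 0.52 (0.09 to 0.93) on the log2(FPKM + 1) scale. *Cxcl14*, another CXC ligand, had changes of 0.15 and -0.28, a difference of 0.43 (-0.10 to 0.95). *Cxcr4* had changes of 0.17 and -0.09, a difference of 0.26 (-0.45 to 0.97). With 1 pooled value per group, none of these differences was tested, and control and treated intervals overlapped in each genotype for *Cxcl9*, *Cxcl14* and *Cxcr4*.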

How the results depend on the processing

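Of 40 member counts recomputed under the alternatives, 39 stayed within 1.5 times the count reported. The exception was the 1 member, *Cxcl3*, that differed between the control groups, which became 0 with a pseudocount of 5 FPKM. For such small counts this range still allows a change by 1. Leaving out the filter could not add to counts between a pair of groups. Genes under 1 FPKM cannot pass 1 there on the log2(FPKM + 1) scale. The 4 that rose in WT became 3 with a pseudocount or a filter of 5 FPKM. The 2 that differed between the treated groups became 3 with a pseudocount of 0.1 or 0 FPKM. At a threshold of 0.5, each count of 2 became 3. Of the counts recomputed for the other gene and marker lists, 218 stayed within that range and 20 did not, of which most came at a threshold of 0.5. There the NF-kB list had 9 genes past the threshold with GEF-H1 and 3 without it, against 4 and 0 at 1, the interferon-stimulated genes 4 and 4, against 1 and 0, and the dendritic cell markers 4 and 1, against 0 and 0. The 1 neutrophil marker past 0.5 was in WT, against 0 past 1. The other moved counts came with a pseudocount of 0.1 or 5 FPKM, and the CXC receptors went from 0 to 1 with 0.1 FPKM. The pseudocount of 0 FPKM was added after the values were seen. No called member value changed direction under any alternative run. For a change between a pair of groups only the rescaling could have reversed it, since a pseudocount or a filter cannot. Of 145 member values, 13 moved by more than the propagated error, all under another pseudocount. The values under the filter of 5 FPKM could not move, since a filter does not alter a value. The WT changes of *Cxcl2* and *Cxcl3* were 2.98 and 4.06 with a pseudocount of 5 FPKM. Rescaling used factors from 0.995 to 1.01. The count of all genes past the threshold in WT was 563, 956 with a pseudocount of 0.1 FPKM, 318 with 5 FPKM and 2671 at a threshold of 0.5. No paired analysis was possible because the table holds 1 pooled value per group, and for the same reason leaving out a replicate could not be run. Low FPKM limits *Cxcl1*, *Cxcl9* and *Cxcl10*.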
